A study of Mus musculus with 2 samples.

Results

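Lrp2 and Cubn are a pair of very long genes on mouse chromosome 2 that encode the endocytic receptors of the kidney's proximal tubule, and their 5-hydroxymethylcytosine (5hmC) is described here in kidney DNA. The members were 2 named genes with a window each on the mm9 build, and they were chosen with earlier results of these data known. The Lrp2 window was chr2:69262001-69424500 (162.5 kb) and the Cubn window chr2:13197501-13413500 (216 kb), and both genes are transcribed toward lower coordinates. Read in steps of 5 kb from the upper end of each window, which is called the start below, they gave 75 full steps, 32 in Lrp2 and 43 in Cubn. Kidney DNA of male C57BL/6 mice aged 6 weeks was used for 1 library enriched with an antibody against 5hmC (hMeDIP) and 1 input library made without antibody. The number of animals is not given in the sources used here. No exon, intron or UTR is assigned below, because no mm9 annotation was used.

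Megalin, the product of Lrp2, is a giant membrane receptor of the low density lipoprotein receptor family that takes up filtered proteins, hormones and vitamin carriers at the brush border. Cubilin, the product of Cubn, is a large peripheral membrane protein that binds albumin and the intrinsic factor complex of vitamin B12 and relies on the protein amnionless for its place at the membrane. Both are known as defining genes of proximal tubule cells, the most abundant epithelial cells of the renal cortex. TET enzymes make 5hmC by oxidizing 5-methylcytosine, mostly at CG pairs, and in many tissues the mark is known to lie along the bodies of transcribed genes. Kidney DNA is a mixture of cell types, so fewer cells that carry the mark and less of it per cell cannot be told apart.

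The promoters differ in their CG content, and CG pairs are the main place where 5hmC can form. They are shown because the start of each gene is measured further on. Each line gives the 250 bases before the start site in RefSeq (build GRCm38.p6, minus strand, written 5′ to 3′ along the gene), with CG in capitals.
Lrp2: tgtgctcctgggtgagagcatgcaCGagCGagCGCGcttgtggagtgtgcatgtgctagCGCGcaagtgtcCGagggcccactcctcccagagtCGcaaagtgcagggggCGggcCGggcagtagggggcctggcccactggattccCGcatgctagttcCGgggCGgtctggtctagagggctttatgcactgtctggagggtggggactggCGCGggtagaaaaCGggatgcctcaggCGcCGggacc
Cubn: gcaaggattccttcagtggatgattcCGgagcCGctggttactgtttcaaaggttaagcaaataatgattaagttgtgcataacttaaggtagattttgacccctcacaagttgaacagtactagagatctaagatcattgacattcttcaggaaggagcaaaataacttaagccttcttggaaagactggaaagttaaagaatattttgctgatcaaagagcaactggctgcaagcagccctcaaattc
The Lrp2 stretch held 18 CG pairs and 66.4% G and C, and the Cubn stretch 2 CG pairs and 39.6%. Among 32851 such promoters, the median was 6 CG pairs and 92.1% held at least 1. Fewer CG pairs than in Lrp2 were found in 78.3% of them and fewer than in Cubn in 18.8%. A CG pair reads the same on both strands, and its count describes the letters only.

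In all, 11424027 hMeDIP and 8316507 input fragments were deposited. A fragment is 1 deposited line, placed by its midpoint. The ratio of a region is its share of hMeDIP fragments divided by its share of input fragments, so that 1 is the genome-wide mean of these libraries and not a fixed amount of 5hmC. Neither library was replicated, so no replicate error can be given. Every interval in parentheses is a 95% exact interval that covers counting error only, and sequenced reads are not independent molecules here. A step was called high or low when its ratio lay more than 0.5 from 0 on the log2 scale and its interval excluded the mean, with at least 5 input fragments. The median 5 kb step of the rest of chromosome 2 held 18 input fragments, so single steps are imprecise.

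The first comparison set each gene against its surroundings. Lrp2 stood well above the genome mean, with 1680 hMeDIP fragments against 726 of input, at a ratio of 1.68 (1.54 to 1.84). Cubn lay at the mean, with 1205 hMeDIP fragments against 914 of input, at a ratio of 0.960 (0.880 to 1.05). Scaled to the fragments outside peaks, which raises every ratio alike, Lrp2 was at 2.22 (2.04 to 2.43) and Cubn at 1.27 (1.16 to 1.38). In that scaling 1 is the mean outside peaks and not the genome-wide mean. The place of Cubn against the genome-wide mean is therefore unchanged. Under either scaling the Lrp2 ratio was 1.76 times that of Cubn (1.55 to 1.99, Fisher's exact conditional interval). The interval lies above 1, so these receptor genes differed by more than counting error in these libraries.

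Lrp2 rose out of its neighbourhood on both sides. The 200 kb before its start had 1076 hMeDIP fragments against 717 of input, at a ratio of 1.09 (0.993 to 1.20). The 200 kb past its end had 875 and 737 fragments and a ratio of 0.864 (0.783 to 0.955). The Lrp2 window was 1.54 times the upstream side (1.35 to 1.76) and 1.95 times the downstream side (1.71 to 2.23), or 1.72 times both together (1.54 to 1.93). Against both sides together the contrast was smaller with other flank lengths, at 1.47 (1.29 to 1.67) for 100 kb and 1.38 (1.25 to 1.52) for 500 kb. In the order of the RefSeq table the nearest protein-coding genes are Dhrs9 and then Abcb11 past the end, and Bbs5 before the start. Abcb11 is the bile salt export pump of hepatocytes.

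Cubn did not rise out of its neighbourhood. The 200 kb before its start had 845 hMeDIP fragments against 708 of input, at a ratio of 0.869 (0.785 to 0.961), and the 200 kb past its end 1401 and 761 fragments and a ratio of 1.34 (1.23 to 1.47). The Cubn window was 0.716 times the downstream side (0.632 to 0.812), so the sequence past its end was the richer in 5hmC. Against the upstream side the value was 1.10 (0.966 to 1.26), an interval that spans 1. Against both sides together it was 0.862 (0.773 to 0.962), but with flanks of 500 kb it turned to 1.09 (0.985 to 1.20), and the hMeDIP fragments per kb alone, not divided by input, were 0.994 times those of the flanks (0.926 to 1.07). The next protein-coding gene past the end of Cubn is Rsu1, and before its start stand Trdmt1, a tRNA methyltransferase, and Vim, the intermediate filament gene of mesenchymal cells.

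**Figure D1:**
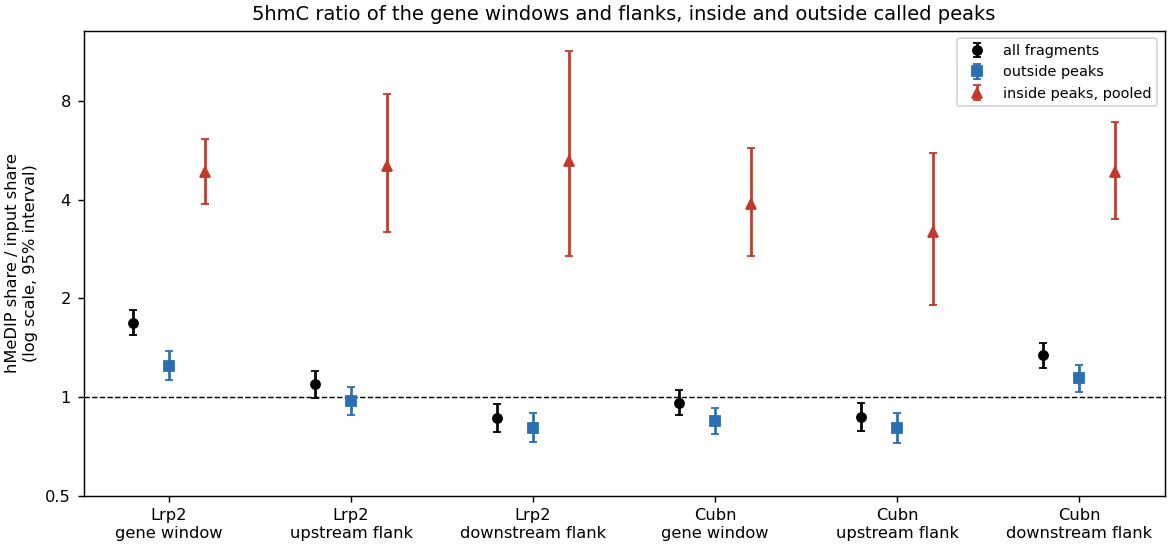
hMeDIP share over input share (log axis) of the Lrp2 and Cubn gene windows and the 200 kb on each side, for all fragments (circles), outside called peaks (squares) and inside them (triangles), with 95% counting intervals. The Lrp2 window stands at 1.68 above both of its flanks, while the Cubn window at 0.960 lies between its flanks at 0.869 and 1.34. Shares are of all fragments, so 1 is not the mean outside peaks.

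Against the rest of chromosome 2, which had a ratio of 1.01 (1.005 to 1.012), the Lrp2 window was 1.67 times higher (1.53 to 1.82) and Cubn 0.951 times (0.872 to 1.04). The chromosome was also cut into windows as long as each gene, with at least 50 input fragments. Of 1069 windows of 162.5 kb, 86.9% had a lower ratio than Lrp2. Their median was 0.814 with quartiles of 0.426 and 1.36, and their 95th percentile of 2.32 lay above Lrp2. By the call rule for steps the Lrp2 window was high, as were 22.7% of those windows, while 44.2% of them were low. Lrp2 was thus in the upper part of the range of the chromosome and not at its extreme. Of 806 windows of 216 kb, 57.6% had a lower ratio than Cubn, and the median was 0.840. The Cubn window was neither high nor low, against 23.6% high and 42.7% low among those windows.

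**Figure D2:**
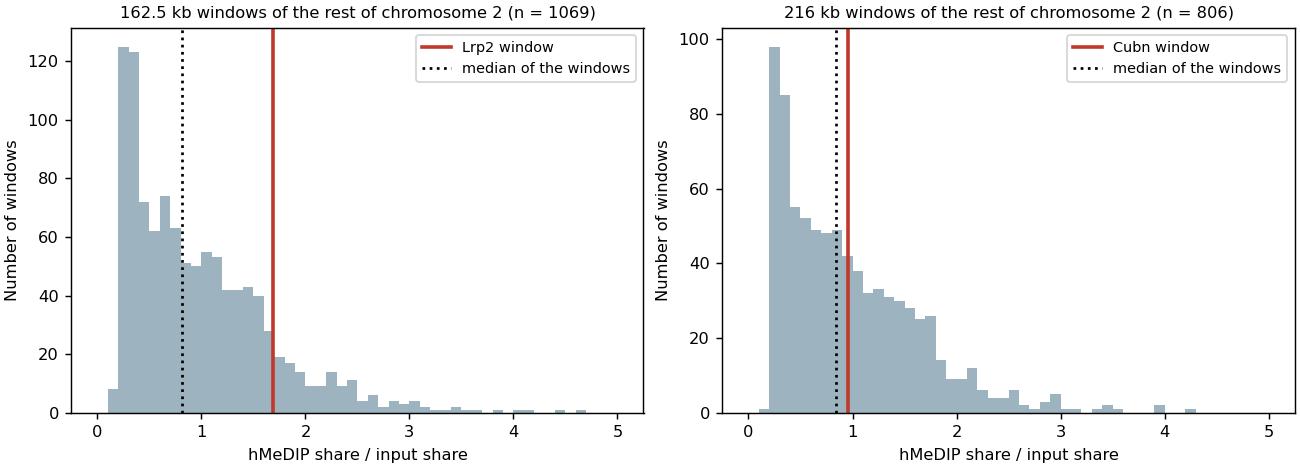
Number of windows of the rest of chromosome 2 by their hMeDIP share over input share, in windows of 162.5 kb (left) and 216 kb (right), with the gene window as a solid line and the median of the windows as a dotted line. Lrp2 at 1.68 lies in the upper tail, with 86.9% of windows below it, and Cubn at 0.960 lies near the median of 0.840.

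Input coverage was itself high over both genes and moved with the windows. Lrp2 had 4.47 input fragments per kb and Cubn 4.23, against 3.40 over the rest of chromosome 2, and 99.3% and 96.7% of windows of their lengths had fewer. Compared with its flanks, the Lrp2 window held 1.23 times the input fragments per kb (1.12 to 1.34) and 2.12 times the hMeDIP fragments per kb (1.98 to 2.26). The contrast in hMeDIP counts not divided by input must be the larger one whenever the window holds more input per kb than its flanks. The value of 2.12 is therefore no separate support. For Cubn the input and hMeDIP values per kb over the flanks were 1.15 (1.06 to 1.25) and 0.994 (0.926 to 1.07). The part that input coverage plays in the ratios was not tested.

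The second comparison followed 5hmC along each gene in 5 kb steps. In Lrp2, 15 of 32 steps were high (46.9%) and 0 were low, where the rest of chromosome 2 had 16.5% high and 30.0% low steps among 33003. Ratios over 1 were found in 27 of the 32 steps (84.4%), against 37.4% on the rest of the chromosome. The median Lrp2 step had a ratio of 1.69, with quartiles of 1.30 and 2.20. In Cubn, 5 of 43 steps were high (11.6%) and 6 were low (14.0%), both less than the background shares. Ratios over 1 were found in 15 steps (34.9%), and the median was 0.860 with quartiles of 0.576 and 1.19.

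High steps of Lrp2 were spread over its whole length, the first from 5 to 10 kb and the last from 155 to 160 kb after the start. The highest, from 40 to 45 kb (chr2:69379501-69384500), had 65 hMeDIP fragments against 13 of input, at a ratio of 3.64 (1.99 to 7.20). The step just before it, from 35 to 40 kb, had 79 and 18 fragments and 3.20 (1.90 to 5.67), and the step from 125 to 130 kb had 69 and 16 fragments and 3.14 (1.80 to 5.80). These intervals overlap widely, so their order is not resolved at this depth. The longest unbroken stretch with ratios over 1 covered 7 steps, from 35 to 70 kb.

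The lowest Lrp2 steps were not called low. From 105 to 110 kb there were 28 hMeDIP fragments against 31 of input, at a ratio of 0.658 (0.380 to 1.13). From 150 to 155 kb the ratio was 0.749 (0.454 to 1.24), and from 120 to 125 kb 0.803 (0.471 to 1.38). Each of these steps held more input fragments (31, 34 and 29) than the median Lrp2 step (22), and their intervals span the genome mean.

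Most Cubn steps were called neither high nor low, and those that were called lay in several parts of the gene. Its highest step, from 95 to 100 kb (chr2:13313501-13318500), had 51 hMeDIP fragments against 12 of input, at a ratio of 3.09 (1.63 to 6.38). The step from 210 to 215 kb, next to the end, had 2.02 (1.16 to 3.68), and the first step of the gene had 70 and 26 fragments and 1.96 (1.23 to 3.20). The lowest step, from 175 to 180 kb, had 8 hMeDIP fragments against 21 of input, at a ratio of 0.277 (0.106 to 0.652). Next came 55 to 60 kb at 0.345 (0.137 to 0.80) and 185 to 190 kb at 0.421 (0.181 to 0.932). On the log2 scale the SD over steps was 0.73 in Cubn and 0.64 in Lrp2, against 0.45 and 0.38 expected from counting, so part of the variation in each gene exceeds counting error. Over the rest of chromosome 2, a far longer stretch whose regions also differ from one another, the SD was 1.31, against 0.57 from counting. In the upstream and downstream sides it was 0.77 and 0.91 for Cubn and 0.89 and 0.69 for Lrp2.

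**Figure D3:**
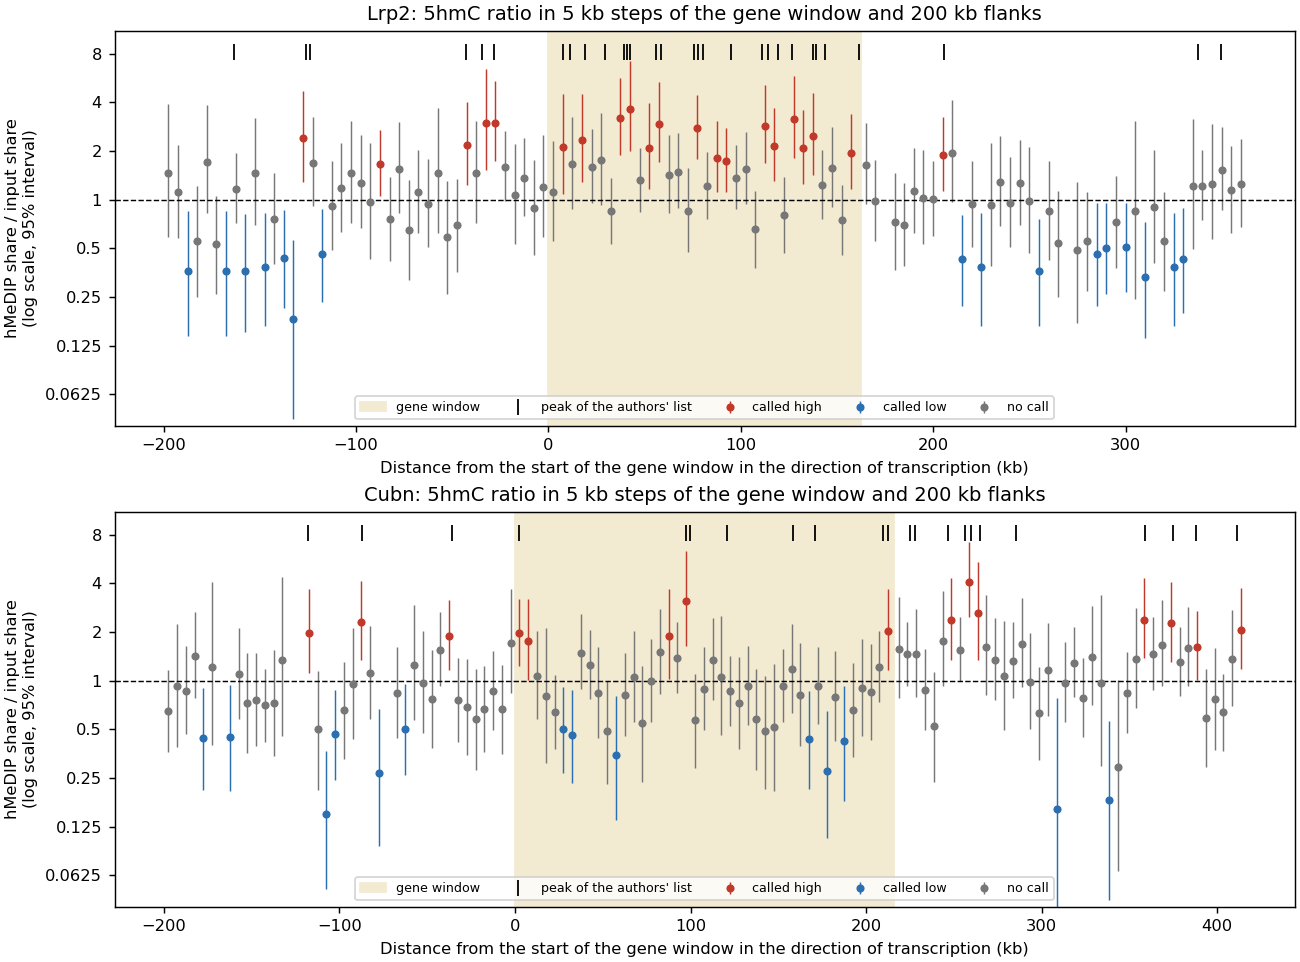
hMeDIP share over input share (log axis) in 5 kb steps with at least 5 input fragments, by distance from the start of each gene window, with 95% counting intervals, called peaks as ticks at the top and the gene window shaded. In the Lrp2 window 15 of 32 steps are high and 0 low, while Cubn has 5 high and 6 low steps among 43.

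Blocks of 25 kb, which hold more fragments, showed the same contrast. The 6 full blocks of Lrp2 ran from 1.45 (1.16 to 1.81) at 100 to 125 kb to 1.97 (1.57 to 2.5) at 125 to 150 kb, and each interval lay above 1. On the rest of chromosome 2, of blocks of this length with at least 25 input fragments, 25.8% had an interval above 1 and 49.3% one below 1. The 8 full blocks of Cubn ran from 0.603 (0.444 to 0.816) at 175 to 200 kb to 1.61 (1.26 to 2.08) at 75 to 100 kb. The block with the highest Cubn ratio was the only full one whose interval lay above 1, and 3 of the 8 had intervals below 1, at 50 to 75, 125 to 150 and 175 to 200 kb.

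No slope along Lrp2 was detectable. From the start onward, the ratios of its 4 equal parts were 1.71 (1.40 to 2.08), 1.92 (1.61 to 2.29), 1.52 (1.29 to 1.80) and 1.63 (1.37 to 1.95). The first was 1.04 times the last (0.799 to 1.37). In Cubn these parts were 1.01 (0.859 to 1.20), 1.08 (0.907 to 1.30), 0.882 (0.736 to 1.06) and 0.862 (0.720 to 1.03), and the first was 1.17 times the last (0.918 to 1.5). Outside called peaks that last value was 1.36 (1.05 to 1.77), which excludes 1.

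The borders of the genes differed as well, in comparisons chosen after the values were seen. At the end of Lrp2 the ratio fell from 1.55 (1.24 to 1.95) in the last 25 kb inside to 0.976 (0.738 to 1.29) in the first 25 kb past it, a contrast of 1.59 (1.11 to 2.29). Finer pieces did not place this fall at the border itself. The last 12.5 kb inside had 1.32 (0.960 to 1.82) and the first 5 kb past the end 1.65 (0.940 to 2.99). At the start of Lrp2 the contrast of inside over outside was 1.37 (0.936 to 2.0), an interval that spans 1. A high stretch stood apart before that start: the block 25 to 50 kb upstream had a ratio of 1.95 (1.5 to 2.56) and 3 peaks. At the start of Cubn the inside was 1.53 times the outside (1.05 to 2.21), and at its end 1.04 times (0.720 to 1.49).

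In the 200 kb sides of Lrp2 the highest upstream step, from -30 to -25 kb, had a ratio of 3.0 (1.75 to 5.43), and the lowest, from -135 to -130 kb, 0.182 (0.0443 to 0.564). Past the end, the highest step began 207.5 kb from the start at 1.94 (0.973 to 4.14), and the lowest began at 307.5 kb with 0.331 (0.140 to 0.728). In the sides of Cubn the upstream extremes were 2.31 (1.34 to 4.16) at -90 kb and 0.151 (0.0511 to 0.369) at -110 kb. Past its end stood the highest step of both genes and their sides, from 256 to 261 kb, with 101 hMeDIP fragments against 18 of input, at a ratio of 4.08 (2.46 to 7.17). The lowest step past the Cubn end, from 306 kb, had 2 hMeDIP and 9 input fragments and 0.162 (0.0170 to 0.782). Both sides of Lrp2 and of Cubn thus held low steps, of which the Lrp2 window had 0.

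The third comparison concerned the start of each gene. In the 5 kb centred on the upper end of the window, Cubn had 68 hMeDIP fragments against 18 of input, at a ratio of 2.75 (1.62 to 4.91), 2.94 times the rest of its window (1.71 to 5.30). In the inner 2 kb the same contrast was 1.74 (0.672 to 5.01), on 16 and 7 fragments. Lrp2 had 22 hMeDIP and 10 input fragments over its 5 kb and a ratio of 1.60 (0.728 to 3.79), 0.951 times the rest of its window (0.429 to 2.26). The inner 2 kb of Lrp2 held only 6 hMeDIP and 4 input fragments, so neither a dip nor a rise at its start was detectable at this depth. The start of Lrp2 was 0.582 times that of Cubn (0.216 to 1.64), which does not separate them. The upper end of a window is not an assigned mm9 start site, whereas the promoters shown above are placed by the RefSeq start on another build. The contrasts of start over body and of both starts were chosen after the values were seen.

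The fourth comparison used the peaks of the authors' list, which were called on the hMeDIP signal and are a description. By midpoint 21 peaks lay in the Lrp2 window, or 12.9 per 100 kb, and 8 in Cubn, or 3.70 per 100 kb, where the rest of chromosome 2 carried 3.70. Peaks covered 14.0% of Lrp2 and 3.27% of Cubn, against 4.93% of the rest of the chromosome. The sides of Lrp2 had 6 peaks upstream and 3 downstream, and those of Cubn 3 and 11. Of all windows with the length of Lrp2, 92.1% had fewer peaks, and of those with the length of Cubn 65.1%. Lrp2 was therefore peak-rich and Cubn at the density of the chromosome.

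The peaks of Lrp2 ran from 447 to 1924 bp in width with a median of 1019 bp, against 1147.5 bp on the rest of chromosome 2 and 899.5 bp in Cubn. Their scores in the authors' list ran from 50.82 to 158.71, where 50 is the lowest score of that list. The highest score of a peak elsewhere on chromosome 2 was 1456.62, and 10 of the 21 were above the median score of the whole list (85.72). Neighbouring midpoints lay a median of 6.36 kb apart, against 5.46 kb over all peaks of the chromosome, and the longest gap was 18.0 kb. Pooled, the 21 peaks held 587 hMeDIP fragments against 88 of input, at a ratio of 4.86 (3.88 to 6.15), which was 0.926 times that of the pooled peaks on the rest of the chromosome (0.739 to 1.17). They took up 34.9% of the hMeDIP and 12.1% of the input fragments of the window.

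The Lrp2 peak with the top score (158.71), chr2:69384589-69385567, lay 39.4 kb after the start and had 31 hMeDIP fragments against 4 of input, at a ratio of 5.64 (1.99 to 22.0). The second, chr2:69309846-69310774 at 114.2 kb, had 35 and 4 fragments and 6.37 (2.28 to 24.7). The third, chr2:69348365-69349631 at 75.5 kb, had 42 and 7 fragments and 4.37 (1.94 to 11.5). These peaks lie in different parts of the gene, with the first beside the step of the highest ratio.
The fourth, chr2:69382908-69383926, stood next to the top peak and had a ratio of 5.46 (1.92 to 21.3), and the fifth, chr2:69296954-69298242, lay at 126.9 kb with 6.01 (2.14 to 23.3). The widest, chr2:69328624-69330547 (1924 bp), had 51 hMeDIP fragments against 9 of input, at a ratio of 4.13 (2.01 to 9.53). All 21 intervals lay above 1, as the calling of peaks on this signal would tend to give, and all overlap one another.

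Cubn had fewer peaks, with widths of 598 to 1376 bp, scores of 52.76 to 132.33 and a longest gap of 94.9 kb. Its peaks pooled to 187 hMeDIP fragments against 35 of input, at a ratio of 3.89 (2.70 to 5.75), 0.742 times the pooled peaks of the rest of the chromosome (0.515 to 1.10). Of the 8 peaks, 7 had intervals above 1, and that of the peak with the lowest score spanned it, at 2.18 (0.830 to 6.72). The peak with the top score, chr2:13242056-13242702 at 171.1 kb, had 26 and 2 fragments and a ratio of 9.46 (2.37 to 82.3). The second and widest, chr2:13410483-13411858 (1376 bp), lay 2.33 kb inside the start and had 45 and 11 fragments and a ratio of 2.98 (1.52 to 6.38). It falls in the raised region at the start described above.
The third, chr2:13200546-13201168, had 17 hMeDIP and 0 input fragments, and the lower bound of its interval was 3.0. The fourth and the fifth, chr2:13315799-13316746 with a ratio of 7.64 (1.87 to 67.2) and chr2:13313672-13314269 with 3.64 (1.03 to 19.6), lie together in the step with the highest Cubn ratio. Between the peak at the start and this pair, the gene held no peak over its longest gap.

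**Figure D4:**
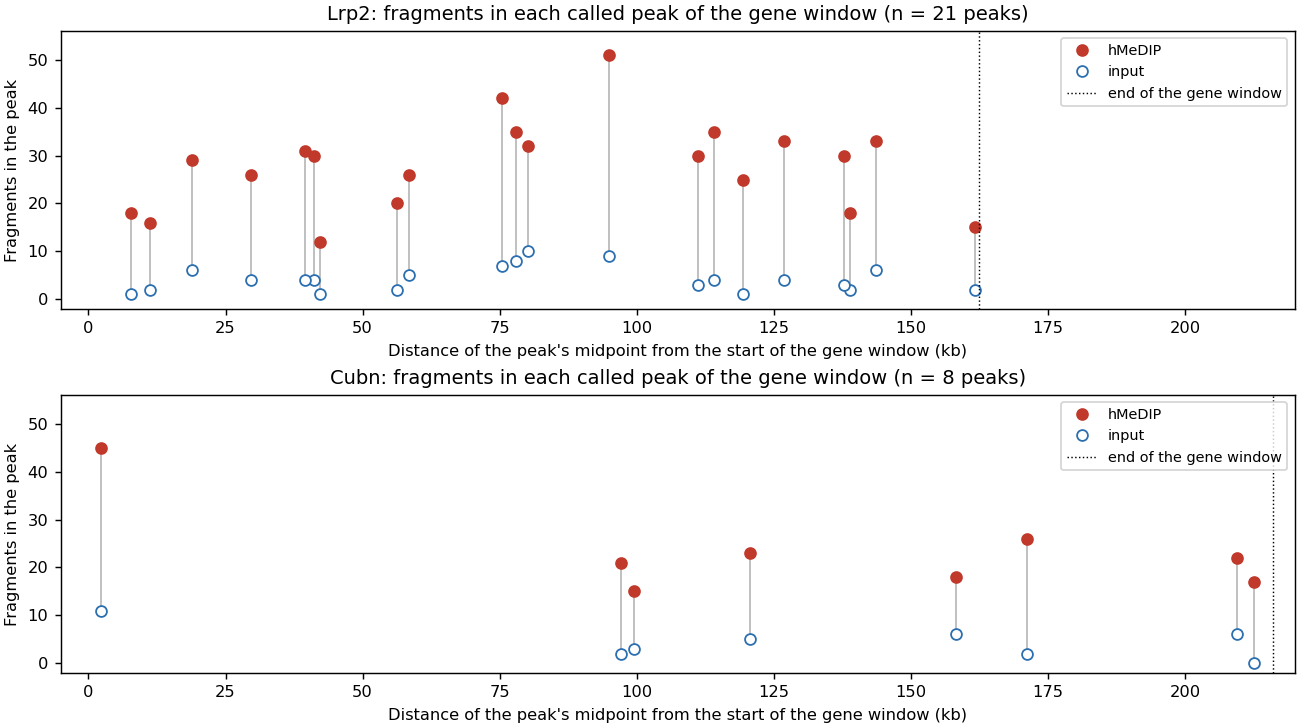
Fragments in each called peak of the Lrp2 (21 peaks) and Cubn (8 peaks) windows, hMeDIP filled and input open, by distance of the midpoint from the start in kb. Lrp2 peaks follow one another at a median of 6.36 kb, while Cubn has a gap of 94.9 kb after the peak at its start.

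The last comparison asked whether Lrp2 was raised only in peaks. Outside all called peaks its ratio was 1.25 (1.13 to 1.38), with 1093 hMeDIP and 638 input fragments, and that of Cubn 0.843 (0.770 to 0.924), with 1018 and 879. The rest of chromosome 2 outside peaks stood at 0.780 (0.777 to 0.783). Shares outside peaks, here and below, were still taken of all fragments of each library. Peaks held 28.3% of the hMeDIP and 5.37% of the input fragments, so 1 is not the mean outside peaks. Cubn outside peaks was 1.08 times the rest of the chromosome (0.986 to 1.18), so its ratio below 1 does not mark it as poor in 5hmC. Lrp2 outside peaks was 1.41 times its flanks outside peaks (1.25 to 1.59), 1.60 times the rest of the chromosome (1.45 to 1.77) and 1.48 times Cubn (1.29 to 1.69). With flanks of 100 kb the first of these was 1.16 (1.01 to 1.33). Among the 17 Lrp2 steps with no peak midpoint, 12 had a ratio over 1 and 4 were high, and of the 36 such Cubn steps 10 and 2. On the rest of chromosome 2, 26.0% of the steps with no peak midpoint had a ratio over 1 and 4.93% were high.

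In Lrp2 the sequence farthest from peaks was not the poorest. Beyond 5 kb of any peak edge, 271 hMeDIP and 128 input fragments gave a ratio of 1.54 (1.24 to 1.92), while the rest of chromosome 2 at that distance, which includes long peak-free domains, had 0.642 (0.639 to 0.645). Within 500 bp of a peak edge the Lrp2 ratio was 0.915 (0.667 to 1.26), against 1.17 (1.15 to 1.19) on the rest of the chromosome. Cubn beyond 5 kb had 0.859 (0.771 to 0.957), and Lrp2 was 1.79 times that (1.41 to 2.29).

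Split at 2 kb, the far sequence of Lrp2 was 1.33 times the near one (1.08 to 1.64), while on the rest of the chromosome it was 0.517 times (0.512 to 0.523). In Cubn it was 0.948 times (0.706 to 1.27). The far sequence of Lrp2 was 1.96 times that of the rest of the chromosome (1.73 to 2.22) and its near sequence 0.760 times (0.645 to 0.897). Split at 1 kb, the far sequence of Lrp2 was 1.19 times the near one (0.921 to 1.54), an interval that spans 1. The distances were chosen after the values were seen, and peak edges follow the hMeDIP signal itself.

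**Figure D5:**
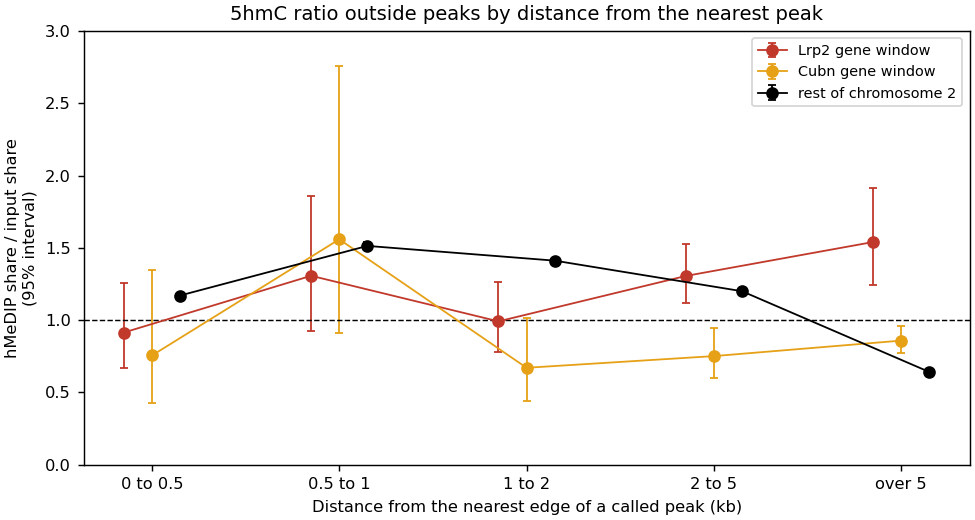
hMeDIP share over input share outside called peaks, by distance from the nearest peak edge in kb, for the Lrp2 window, the Cubn window and the rest of chromosome 2, with 95% counting intervals. Beyond 5 kb the rest of the chromosome is at 0.642, Cubn at 0.859 and Lrp2 at 1.54. Shares are of all fragments, so 1 is not the mean outside peaks.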

How the data were processed

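Counts per mapped 350 bp line were deposited by the authors for 1 hMeDIP and 1 input library. Build mm9, Bowtie 1.0.0 and CASAVA are named in the submitters' processing notes, without settings. A line was read as 1 fragment, from the values, and its count as reads sharing it. The peak list, whose score is the deposited one, was made with MACS, per the file headers; version, control and threshold are not given. The meaning of a numbered range in its track line is not given, so the peaks may not rest on this library alone.

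Fragments were assigned by midpoint. Ratios carry Clopper-Pearson intervals and contrasts Fisher's exact conditional intervals (Python 3.11.15, scipy 1.17.1), checked on simulated counts. The rest of chromosome 2 excludes both windows and their 200 kb sides. Named are, per gene, the 5 top peaks by score, the widest one, the 3 highest and 3 lowest steps, and the extreme steps of each side. Members, windows and comparisons were chosen with earlier results of these data known. The alternatives changed read weighting, fragment length, peaks, scaling, steps, thresholds, flanks and window ends.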

Additional observations from a re-analysis of the deposited data

How the results depend on the processing

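No paired analysis was possible because each group has 1 library. Of 91 alternatives to the main comparisons, 74 stayed within these limits: a ratio within the interval of its main value, a contrast whose interval still excluded 1 in the same direction or still spanned it, a count or share within 1.5 times. Within them, the interval of the Cubn window came to exclude 1 when trimmed by 5 kb, at 0.911 (0.832 to 0.997), that of the Cubn start came to span 1 over 2 kb, at 1.66 (0.648 to 4.78), Lrp2 over its flanks was 1.38 (1.25 to 1.52) with 500 kb flanks, and Cubn over the rest of the chromosome was 1.08 (0.986 to 1.18) without fragments in peaks. Scaling to the fragments outside peaks multiplies every ratio alike: Lrp2 became 2.22 and Cubn 1.27, where 1 is the mean outside peaks and not the genome-wide mean. High steps were then 78.1% in Lrp2 and 23.3% in Cubn (24.6% on the rest of chromosome 2), and low Cubn steps 2.33% (18.3%). Without fragments in peaks the windows stood at 1.25 and 0.843, on shares of all fragments, so that 1 is not the mean there. The first over the last of 4 equal parts of Cubn then stood at 1.36. With steps of 10 kb, 75% of Lrp2 steps were high (20.4% on the rest) and 23.8% of Cubn steps low (39.7%), and with 2.5 kb 1.59% of Lrp2 steps were low (20.3%). A log2 threshold of 1 left 4.65% of Cubn steps high (13.4%). Cubn over its flanks was 1.09 (0.985 to 1.20) with 500 kb flanks and 0.994 (0.926 to 1.07) in hMeDIP fragments per kb. Both intervals span 1. Cubn over the rest of the chromosome was 0.903 (0.825 to 0.988) with the window trimmed by 5 kb. Of the peaks, 10 in Lrp2 and 2 in Cubn had a score above the median of the list. The cause was not tested. The per kb alternative, the splits at 1 and 5 kb and those of single flanks and start contrasts were chosen after seeing the data. Some of the 74 could not leave the limits. A minimum of 10 input fragments removed no step of either gene, and the per kb contrast of Lrp2 had to exceed its main value. Depth limits single peaks, single steps and the starts.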

Other observations

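Positions with 2 or more reads were each counted once in the main comparisons. They made up 1.25% (0.775 to 1.90) of the hMeDIP and 0.413% (0.0853 to 1.20) of the input positions of Lrp2. In Cubn they made up 1.24% (0.698 to 2.04) and 0.328% (0.0677 to 0.956). No position in either window held more than 2 reads. The intervals of the libraries overlap in each gene, but the input values rest on 3 repeated positions per gene. Over the whole genome, 152337 of 11424027 hMeDIP lines and 31894 of 8316507 input lines were repeated, a larger share in the hMeDIP library. Plus-strand fragments were 49.1% of the hMeDIP and 50.8% of the input fragments in Lrp2, and 49.96% and 50.2% in Cubn.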
